A study of Mus musculus with 8 samples.

Results

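A set of 10 genes that move ions or water across the airway and alveolar epithelium was examined in mouse lung by RNA-Seq. They were taken by name from the 23469 genes of the count table: the anion exchanger and anion channel genes Slc26a4, Cftr and Ano1, the sodium channel subunit genes Scnn1a, Scnn1b and Scnn1g, the chloride entry gene Slc12a2, the water channel genes Aqp4 and Aqp5, and the proton pump gene Atp12a. The lungs came from C57BL/6 mice, wild type or DDAH1-transgenic, that received PBS into the trachea, in a volume of 50 µl and either with 100 µg of house dust mite (HDM) or without it. The mice were challenged 3 times per week for 3 weeks, and lungs were taken 24 hours after the final challenge. DDAH1 degrades asymmetric dimethylarginine, an inhibitor of nitric oxide synthesis. The promoter of the transgene and the age of the mice are not given in the sources used here. Each of the 4 groups was a single pool of RNA from 4 mice, read as 2 libraries. The spread between the 2 libraries is therefore technical, and the p-values do not cover variation between mice.

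The liquid film on the airway surface is kept at its volume and pH by opposing transport steps. Chloride enters epithelial cells from the blood side through the cotransporter NKCC1 (Slc12a2) and leaves on the airway side through channels such as CFTR (Cftr) and TMEM16A (Ano1), and water follows. Pendrin (Slc26a4) exchanges chloride for bicarbonate and other anions on the airway side. The epithelial sodium channel (ENaC), assembled from the alpha, beta and gamma subunits (Scnn1a, Scnn1b and Scnn1g), takes sodium and with it water back into the cell. Aquaporin 5 (Aqp5) is a water channel of alveolar type 1 cells and glands, and aquaporin 4 (Aqp4) is found in the basolateral membrane of airway cells and in skeletal muscle. ATP12A (Atp12a) secretes acid into the airway.

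Several features of the libraries bear on every value below. The total counts lay between 5694928 and 11929374, with the smallest library being replicate 1 of the HDM-treated, labelled DDAH1-transgenic mice, and between 8.58% and 21.8% of a library's counts were those of Rn45s, a precursor of ribosomal RNA. Xist, the RNA of the inactive X chromosome, lay between 11.3 and 20.8 CPM (counts per 1000000, scaled with TMM factors) in the 4 PBS libraries and between 2051 and 3028 CPM in the 4 HDM libraries, and the Y-linked gene Ddx3y showed the opposite, with between 58.8 and 68.9 CPM under PBS and at most 0.302 CPM under HDM. The effect of HDM and a difference between the sexes cannot be told apart in these libraries, nor can either be told apart from the difference between one pool of mice and another. Ddah1 itself was at 40.96 ± 9.39 CPM (mean ± SD, n = 2 libraries, as throughout) in PBS-treated wild type, 65.4 ± 16.6 in PBS-treated labelled DDAH1-transgenic, 43.9 ± 1.15 in HDM-treated wild type and 34.1 ± 0.947 in HDM-treated labelled DDAH1-transgenic libraries. Under HDM both libraries labelled DDAH1-transgenic thus lay below both wild type libraries, against the direction of their label. By the edgeR test described below, Ddah1 did not pass between genotypes under HDM (log2 fold change -0.32, adjusted p = 0.637) or PBS (0.66, adjusted p = 0.358). Whether reads of the transgene would be counted for this gene is not given in the sources used here. These values do not settle the labels, and genotypes are given here as labelled. Markers of tissue other than lung also differed between pools. The 4 thymocyte genes (Rag1, Rag2, Dntt and Ptcra) summed to 36.1 ± 5.44 CPM in PBS-treated wild type and to between 2.87 and 3.56 CPM on average in the other groups, and the 4 skeletal muscle genes (Myh1, Myh2, Myh4 and Actn3) summed to 1.68 ± 0.395 CPM in PBS-treated wild type, 63.2 ± 14.7 in HDM-treated wild type, 120.3 ± 5.52 in PBS-treated labelled DDAH1-transgenic and 33.3 ± 6.18 in HDM-treated labelled DDAH1-transgenic libraries. The 3 adipose genes (Adipoq, Plin1 and Cfd) summed to 48.7 ± 5.92, 20.8 ± 1.05 and 7.98 ± 0.952 CPM in the first 3 of these groups, and to 8.50 and 68.8 CPM in the 2 libraries of the last. The 4 eosinophil genes (Siglecf, Prg2, Epx and Ccr3) summed to 14.2 ± 2.74 CPM in PBS-treated and 19.4 ± 1.61 in HDM-treated wild type. In labelled DDAH1-transgenic libraries they summed to 10.9 ± 4.33 CPM under PBS and 24.3 ± 4.655 under HDM. By the edgeR test described below, Ccr3 rose with HDM in wild type and Prg2 in labelled DDAH1-transgenic mice, and Siglecf passed in neither. The Ccr3 counts in wild type were 6 and 0 under PBS and 138 and 16 under HDM, so that its mean under HDM rests mostly on 1 library. Prg2 did not pass in wild type (adjusted p = 0.617). In whole lung, fewer cells of a type and less RNA per cell cannot be told apart.

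The promoter sequences of Slc26a4 and Scnn1b, the member that rose and the member that fell past the threshold with HDM in wild type, are shown, taken from RefSeq (GRCm38.p6). Slc26a4 (Entrez identifier 23985) lies on the minus strand of chromosome 12 at chr12:31519814-31560055, and Scnn1b (20277) lies on the plus strand of chromosome 7 at chr7:121865038-121918728. The stretch for Slc26a4 is chr12:31560056-31560234 and that for Scnn1b is chr7:121864788-121865037, both directly before the annotated gene and written 5′ to 3′ on the strand of the gene. Capitals mark the letters TGTTCT, the half-site of the glucocorticoid receptor, on either strand.
Slc26a4: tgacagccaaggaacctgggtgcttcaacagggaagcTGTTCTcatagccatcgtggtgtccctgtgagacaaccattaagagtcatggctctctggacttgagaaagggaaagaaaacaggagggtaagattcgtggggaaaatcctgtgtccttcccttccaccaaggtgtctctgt
Scnn1b: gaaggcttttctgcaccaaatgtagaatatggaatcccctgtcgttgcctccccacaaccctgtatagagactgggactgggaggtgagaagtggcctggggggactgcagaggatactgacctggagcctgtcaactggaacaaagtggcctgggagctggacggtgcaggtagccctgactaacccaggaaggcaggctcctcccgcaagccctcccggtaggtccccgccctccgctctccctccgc
The motif was searched, with others chosen after the counts were seen, in promoter windows from 250 bases before to 50 bases after the start, for 6 of the 10 genes. It was found in the window of 1 of the 6, Slc26a4, and in 18.974% of 32851 promoters in the table. The STAT6 motif was in none of the 6 windows and in 6.953% of all promoters, and the TATA box letters TATAAA were in 1 of the 6, again Slc26a4, and in 13.616% of all. The stretch shown for Slc26a4 is only the 179 bases of its window before the annotated gene, and the TATAAA match is not within it. A match describes letters in this window and says nothing of a factor.

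Each pairwise comparison was tested with edgeR (quasi-likelihood test) on its own 4 libraries. Every adjusted p below is from this edgeR test unless another fit or setting is named, with the Benjamini-Hochberg correction across all genes tested. The threshold was an adjusted p of 0.05, and 9 of the 10 genes passed the low-count filter in every comparison, all but Atp12a. With HDM in wild type, 1 of 9 rose (Slc26a4) and 1 fell (Scnn1b), while 6.74% of all genes tested were called (4.44% higher and 2.3% lower). In labelled DDAH1-transgenic mice 1 of 9 rose with HDM (Slc26a4) and 1 fell (Scnn1a), while 13.8% of all genes were called (8.43% higher and 5.35% lower). Between the labelled genotypes under HDM, 1 of 9 was lower (Slc26a4) and none was higher, against 2.44% of all genes called (1.84% higher and 0.599% lower). Under PBS none of the 9 was called by edgeR or by DESeq2, against 0.657% of all genes (0.281% higher and 0.375% lower). At an unadjusted p under 0.05 there were 2 of 9 under PBS, Scnn1a (log2 fold change 0.38) and Scnn1g (0.37), against 9.98% of all genes. The interaction, which is the genotype effect with HDM minus that with PBS in a fit of all 8 libraries, was called for none of the 9 by edgeR, against 1.76% of all genes (1.05% higher and 0.706% lower). Here 3 of 9 had an unadjusted p under 0.05 (Slc26a4, Scnn1a and Aqp4), against 14.7% of all genes, and DESeq2 called 1, Scnn1a. The median log2 fold change of the 9 genes was -0.27 and -0.09 with HDM in wild type and labelled DDAH1-transgenic mice, where that of all genes was 0.02 and 0.03. Between genotypes it was 0.27 under PBS and 0.25 under HDM, against 0.00 and 0.01. The comparisons share groups of libraries, so that their values are not independent.

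Of the 10 genes, Slc26a4 changed most. Its counts were 50 and 95 in the PBS-treated wild type libraries, 2049 and 1952 in HDM-treated wild type, 39 and 26 in PBS-treated labelled DDAH1-transgenic, and 326 and 720 in HDM-treated labelled DDAH1-transgenic libraries. On the CPM scale the same libraries held 5.01 and 7.76, 183 and 196, 3.90 and 2.74, and 48.6 and 55.8. Every HDM library lay above every PBS library, and both wild type HDM libraries lay above both labelled DDAH1-transgenic HDM libraries. In wild type mice the level was 29.3-fold higher with HDM than with PBS (log2 fold change 4.88, SE 0.24, adjusted p = 1.51e-08). In labelled DDAH1-transgenic mice it was 15.9-fold higher (log2 fold change 3.99, SE 0.39, adjusted p = 6.63e-05). Both increases passed the threshold of 0.05 under all 12 alternative settings of the analysis.

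**Figure D1:**
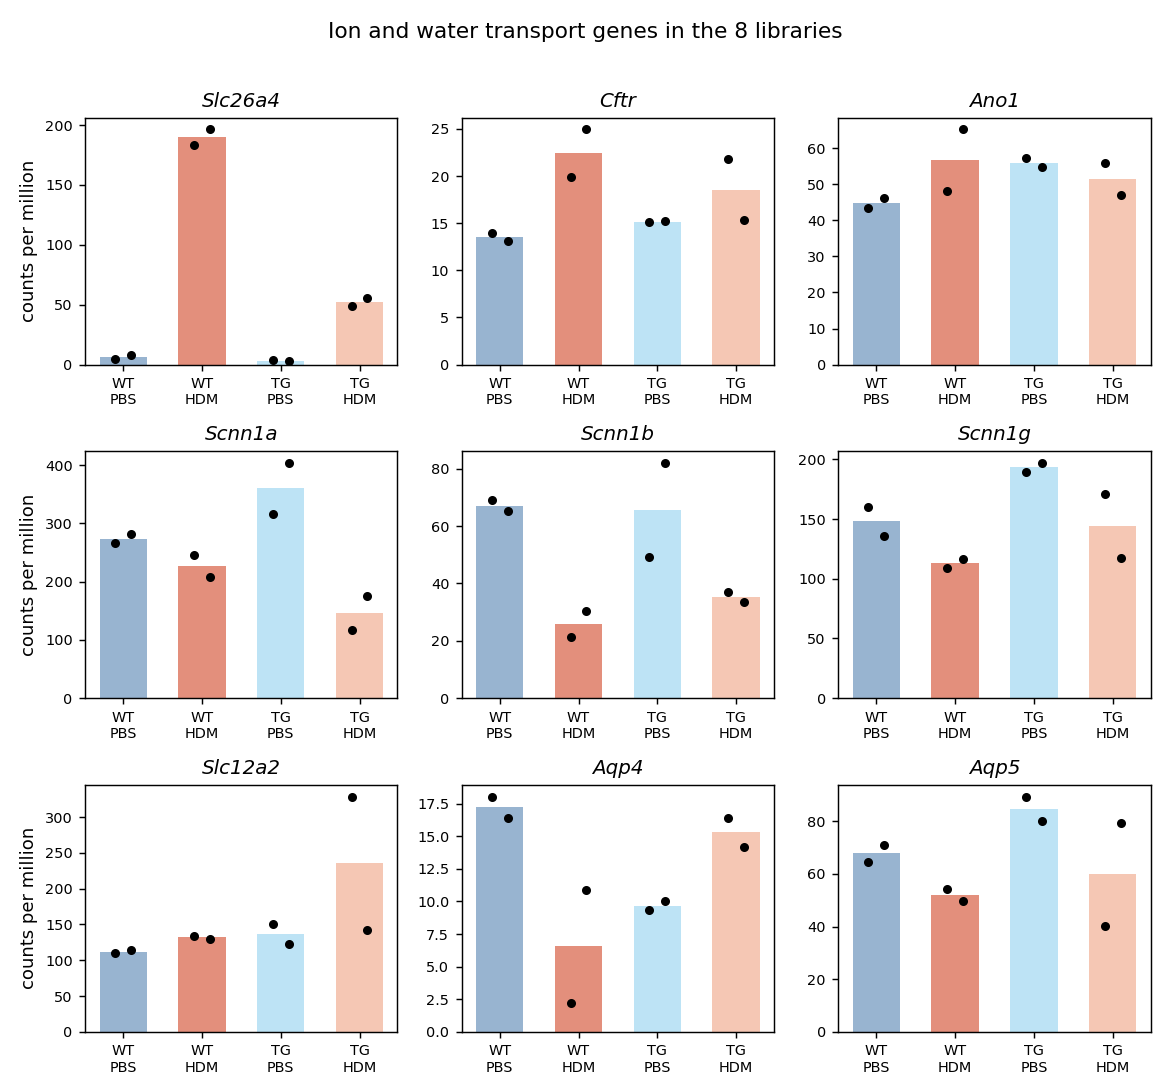
CPM (vertical axes, linear from 0, a scale for each gene) of the 9 transport genes with any count in the 8 libraries, labelled wild type (WT) or DDAH1-transgenic (TG) and treated with PBS or HDM. Points are single libraries and bars are means of 2 libraries. Slc26a4 is between 48.6 and 196 CPM in the 4 HDM libraries and at most 7.76 CPM in the 4 PBS libraries, while in Slc12a2 a single library, at 329 CPM, stands apart.

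Under HDM, Slc26a4 was 3.53-fold lower in labelled DDAH1-transgenic than in wild type libraries (log2 fold change -1.82, SE 0.22, adjusted p = 0.00157). Without replicate 1 of the HDM-treated wild type libraries the log2 fold change was -1.89 and the adjusted p 0.165, and without replicate 2 these were -1.76 and 0.0971. Under PBS the levels were 6.39 ± 1.95 and 3.32 ± 0.820 CPM, and the difference did not pass the test (log2 fold change -0.95, SE 0.66, adjusted p = 0.696). The interaction was -0.91 on the log2 scale (SE 0.40, adjusted p = 0.299), so that the genotype difference under HDM was not shown to differ from that under PBS. The study listed Slc26a4 among changed genes of these same libraries, so that its direction is not independent evidence.

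Markers of goblet cells, the mucus-secreting cells of the airway, were on average higher with HDM in both genotypes, as Slc26a4 was. The 5 goblet genes (Muc5ac, Muc5b, Spdef, Foxa3 and Agr2) summed to 753 ± 8.84 CPM in PBS-treated wild type, 2591 ± 37.02 in HDM-treated wild type, 575 ± 35.4 in PBS-treated labelled DDAH1-transgenic and 1395 ± 212 in HDM-treated labelled DDAH1-transgenic libraries. Foxa3 had 0 counts in 5 of the 8 libraries, both PBS-treated wild type ones included. In wild type, 3 of the 3 goblet genes tested rose with HDM, and in labelled DDAH1-transgenic mice 3 of the 4 tested rose. Muc5ac, the inducible gel-forming mucin, was at 7.39 CPM on average in PBS-treated and 285 CPM in HDM-treated wild type, and at 13.1 and 119 CPM in the labelled DDAH1-transgenic libraries. Under PBS it thus lay higher in the labelled DDAH1-transgenic libraries, where Slc26a4 lay lower, and neither difference passed the test. Muc5b and Agr2, the other goblet genes tested under PBS, were lower there on average, as Slc26a4 was. Their log2 fold changes were -0.42 (adjusted p = 0.106) and -1.50 (adjusted p = 0.722). DESeq2 called this Muc5b difference and edgeR did not. The interaction passed the edgeR test for Muc5ac (-2.06, adjusted p = 0.00193) and not for Slc26a4. Nor did it pass for the other goblet genes tested. It was -0.45 for Muc5b (adjusted p = 0.254), 1.16 for Agr2 (adjusted p = 0.699) and 1.06 for Spdef (adjusted p = 0.864). Under HDM, Muc5ac and Muc5b were lower in labelled DDAH1-transgenic than in wild type libraries (log2 fold change -1.22, adjusted p = 0.00771, and -0.82, adjusted p = 0.0159). The other 2 goblet genes tested there did not pass, Agr2 at -0.30 (adjusted p = 0.769) and Spdef in the opposite direction at 1.54 (adjusted p = 0.543), from 1.12 CPM on average in wild type to 3.21. Muc5b made up most of the summed level, with 2283 and 1256 CPM on average in these groups. The study also listed Muc5ac. The part of goblet cell number in the Slc26a4 result was not tested.

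Cftr and Ano1, the channel genes of chloride exit, did not pass the test in any of the 4 pairwise comparisons. The Cftr counts were 139 and 160 in PBS-treated wild type, 222 and 248 in HDM-treated wild type, 151 and 144 in PBS-treated labelled DDAH1-transgenic, and 146 and 198 in HDM-treated labelled DDAH1-transgenic libraries. The log2 fold change for HDM against PBS was 0.73 in wild type (SE 0.36, adjusted p = 0.283) and 0.32 in labelled DDAH1-transgenic mice (SE 0.42, adjusted p = 0.684). Both HDM-treated wild type libraries lay above both of the PBS-treated ones on the CPM scale, at 19.9 and 24.9 against 13.9 and 13.1. Cftr shares 129 exon bases with a gene on the opposite strand, Gm15592, and the counting is not stated to use strand, so that reads of the pair cannot be told apart there. The Ano1 counts were 434 and 565, 539 and 648, 571 and 518, and 375 and 605 in the same order of groups. Its CPM lay between 43.5 and 65.2 in all 8 libraries, and its log2 fold changes for HDM against PBS were 0.33 (SE 0.24, adjusted p = 0.491) and -0.09 (SE 0.27, adjusted p = 0.871).

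The 3 ENaC subunit genes were all on average lower with HDM, and 1 subunit in each genotype passed the test, a different one in each. Scnn1a, the alpha subunit that the channel needs to conduct, had 2661 and 3441 counts in PBS-treated wild type, 2756 and 2063 in HDM-treated wild type, 3168 and 3826 in PBS-treated labelled DDAH1-transgenic, and 787 and 2263 in HDM-treated labelled DDAH1-transgenic libraries. On the CPM scale these were 267 and 281, 247 and 207, 317 and 404, and 117 and 175. The labelled DDAH1-transgenic libraries were the highest of all under PBS and the lowest of all under HDM. Scnn1a fell by 1.28 on the log2 scale with HDM in the labelled DDAH1-transgenic mice (SE 0.23, adjusted p = 0.00329, 2.43-fold). In wild type the difference was -0.27 (SE 0.14, adjusted p = 0.305). The interaction was -1.02 (SE 0.27, unadjusted p = 0.00153, adjusted p = 0.0678), so that the effect of HDM was not shown to differ between the genotypes, and this adjusted p passed the threshold in 4 of 15 alternatives. The fall in labelled DDAH1-transgenic mice lost its call without replicate 1 (log2 fold change -1.45, adjusted p = 0.0521) or replicate 2 (-1.09, adjusted p = 0.128) of their PBS libraries.

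Scnn1b, the beta subunit, had 688 and 800 counts in PBS-treated wild type, 239 and 303 in HDM-treated wild type, 493 and 777 in PBS-treated labelled DDAH1-transgenic, and 248 and 431 in HDM-treated labelled DDAH1-transgenic libraries. These were 68.9 and 65.4, 21.4 and 30.5, 49.4 and 82.0, and 37.0 and 33.4 CPM. All 4 HDM libraries lay below all 4 PBS libraries. In wild type, Scnn1b fell by 1.38 on the log2 scale (SE 0.26, adjusted p = 0.00438, 2.60-fold), and the call held in 12 of 12 alternatives. In labelled DDAH1-transgenic mice the difference was -0.87 (SE 0.31, adjusted p = 0.0888) and passed the threshold in 4 of 12 alternatives, among them DESeq2 (adjusted p = 0.0473). The interaction was 0.48 (SE 0.41, adjusted p = 0.643). Between the genotypes, Scnn1b differed by -0.05 under PBS and 0.48 under HDM, with neither past the threshold (adjusted p = 0.972 and 0.518).

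Scnn1g, the gamma subunit, had 1602 and 1667, 1220 and 1161, 1895 and 1866, and 1148 and 1511 counts in the same order of groups. With HDM its log2 fold change was -0.40 (SE 0.16, adjusted p = 0.192) in wild type and -0.39 (SE 0.23, adjusted p = 0.299) in labelled DDAH1-transgenic mice. In each genotype both HDM libraries lay below both PBS libraries, and neither difference passed the test. Without replicate 1 of the HDM-treated labelled DDAH1-transgenic libraries the second value was -0.72 and passed the test (adjusted p = 0.0242), and without replicate 2 it was -0.15. Between the genotypes under HDM, Scnn1g differed by 0.40 (adjusted p = 0.444), or by 0.66 without that replicate 2 (adjusted p = 0.0485). Scnn1b and Scnn1g neighbour each other on chromosome 7, where Scnn1g occupies 121734420 to 121768482, and Scnn1a lies on chromosome 6 at 125314271 to 125344943.

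**Figure D2:**
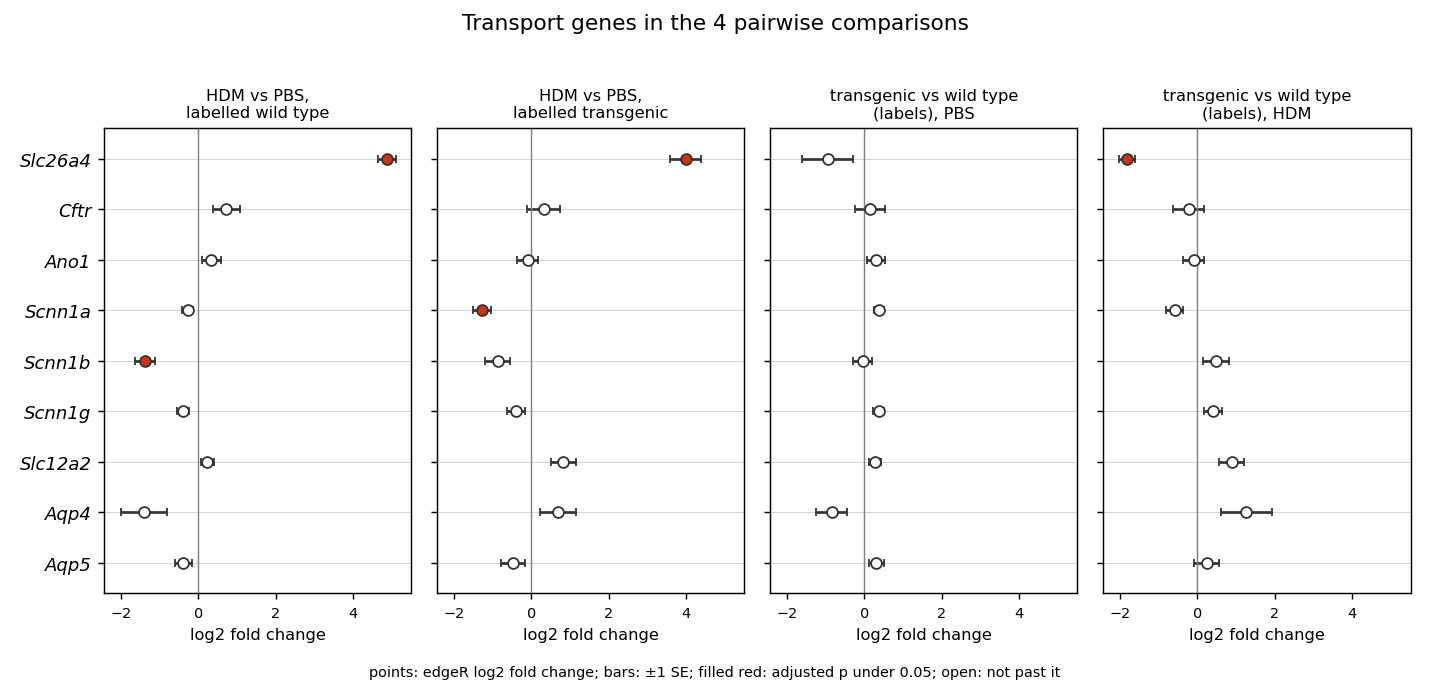
Log2 fold changes (horizontal axes, edgeR) with bars of 1 SE for 9 transport genes in the 4 pairwise comparisons. Filled points passed an adjusted p of 0.05. Slc26a4 is filled in 3 panels, at 4.88, 3.99 and -1.82, Scnn1b only for HDM in wild type at -1.38, and Scnn1a only for HDM in the labelled DDAH1-transgenic libraries at -1.28.

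The make-up of the ENaC transcripts was compared per length, as CPM per kb of coding sequence. In PBS-treated wild type libraries Scnn1a made up 54.2% ± 3.20, Scnn1b 14.6% ± 0.233 and Scnn1g 31.3% ± 2.96 of the 3 subunits. In HDM-treated wild type libraries the share of Scnn1b was 6.07% and 9.14%, below the 14.7% and 14.4% of both PBS libraries. In labelled DDAH1-transgenic libraries the share of Scnn1b overlapped, at 9.43% and 12.8% under PBS and 11.9% and 10.9% under HDM. There Scnn1a took 55.3% and 57.3% under PBS and 34.4% and 52.0% under HDM, and the low value is that of the smallest library. The summed level of the 3 subunits was 241 ± 5.23 CPM per kb in PBS-treated and 179 ± 7.07 in HDM-treated wild type, and 304 ± 43.8 and 161 ± 1.20 in the labelled DDAH1-transgenic libraries. No test was made of these shares and sums.

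**Figure D3:**
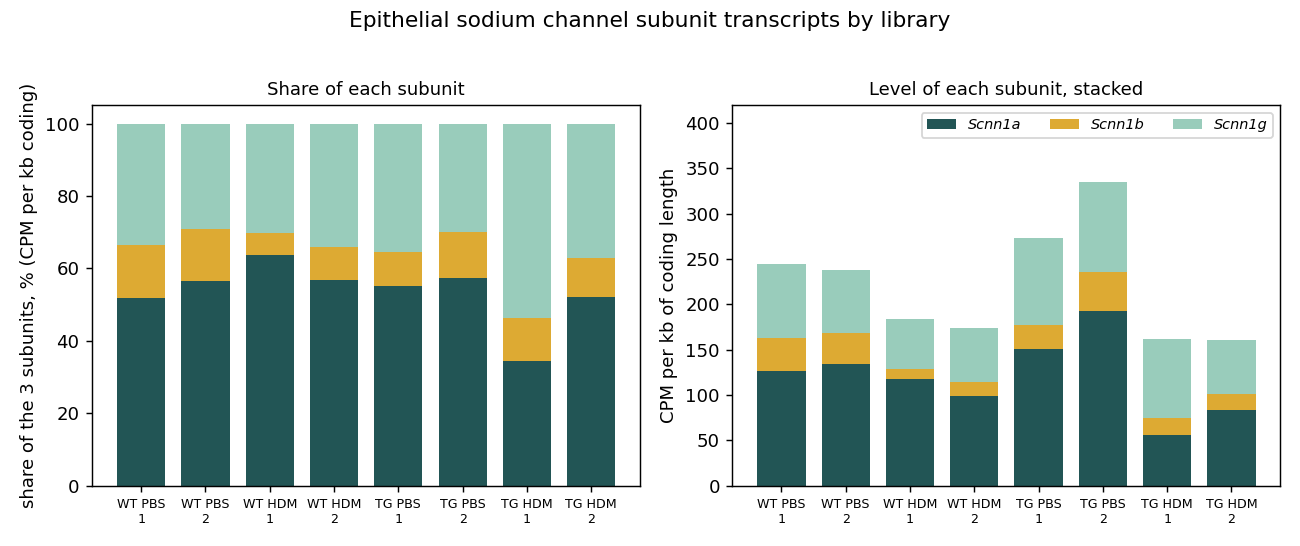
Share (left, percent) and stacked level (right, CPM per kb of coding length) of Scnn1a, Scnn1b and Scnn1g in each of the 8 libraries. The sum is between 237 and 335 CPM per kb in the 4 PBS libraries and between 161 and 184 in the 4 HDM libraries, and the Scnn1b share is at its lowest, 6.07% and 9.14%, in the HDM-treated wild type libraries.

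Cells that carry ENaC differ along the lung, and some markers of alveolar and airway secretory cells fell with HDM while others did not pass the test. Of 5 alveolar type 1 genes, Rtkn2 and Akap5 fell in both genotypes (log2 fold change -1.06 and -1.60 in wild type, adjusted p = 0.00411 and 5.54e-06, and -0.87 and -1.72 in labelled DDAH1-transgenic mice, adjusted p = 0.0234 and 0.000586), while Ager, Hopx and Pdpn did not pass the test. The 5 genes summed to 1212 ± 83.3 CPM in PBS-treated and 740 ± 68.2 in HDM-treated wild type, and to 1644 ± 53.03 and 1094 ± 113 in labelled DDAH1-transgenic libraries. Of 5 alveolar type 2 genes, 1 fell in each genotype, Sftpc in wild type (log2 fold change -0.62, adjusted p = 0.00048) and Sftpb in labelled DDAH1-transgenic mice (-0.92, adjusted p = 0.00557). In wild type the other 4 lay between -0.03 (Sftpb) and 0.28 (Lamp3) and did not pass, and in labelled DDAH1-transgenic mice the other 4 lay between -0.49 (Abca3) and -0.06 (Lamp3). The 4 airway secretory genes (Scgb1a1, Scgb3a2, Scgb3a1 and Cyp2f2), whose summed level is mostly Scgb1a1, summed to 29270 and 36770 CPM in PBS-treated wild type, 10890 and 12810 in HDM-treated wild type, 35620 and 53820 in PBS-treated labelled DDAH1-transgenic, and 10140 and 13970 in HDM-treated labelled DDAH1-transgenic libraries. Of these genes, 3 of 4 fell in wild type. In labelled DDAH1-transgenic mice Scgb1a1 and Cyp2f2 fell, and Scgb3a2 and Scgb3a1 rose. None of the 4 ciliated cell genes and none of the 4 general epithelial genes (Epcam, Cdh1, Krt8 and Krt18) passed the test in any of the pairwise comparisons by edgeR, and of those in the 2 HDM comparisons, 2 ciliated and 1 epithelial had an unadjusted p under 0.05, all 3 in labelled DDAH1-transgenic mice. DESeq2 called none of them either. The ciliated genes summed to 176 and 181 CPM in PBS-treated and 161 and 114 CPM in HDM-treated wild type libraries. In labelled DDAH1-transgenic libraries they summed to 177 and 222 CPM under PBS and 121 and 129 CPM under HDM. All HDM libraries thus lay below all PBS libraries in this sum. The general epithelial genes summed to between 394 and 711 CPM in all 8 libraries. The part of cell make-up in the ENaC results was not tested.

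Slc12a2, the chloride entry gene of the blood side, had 1095 and 1396 counts in PBS-treated wild type, 1495 and 1294 in HDM-treated wild type, 1500 and 1163 in PBS-treated labelled DDAH1-transgenic, and 2205 and 1834 in HDM-treated labelled DDAH1-transgenic libraries. On the CPM scale the last pair was 329 and 142, and the other 6 libraries lay between 110 and 150.1 CPM. The high value is again that of the smallest library. The log2 fold change with HDM was 0.23 in wild type (SE 0.16, adjusted p = 0.465) and 0.82 in labelled DDAH1-transgenic mice (SE 0.33, adjusted p = 0.12). Without that library the second value was 0.06, and without the other one it was 1.29. This second difference passed the threshold in 6 of 12 alternatives, among them the correction for transcript length (1.17, adjusted p = 0.0469). Between the genotypes under HDM, Slc12a2 differed by 0.88 (SE 0.32, adjusted p = 0.194), and by 0.128 to 1.38 when 1 library was left out.

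Neither aquaporin gene passed the test in any comparison. Aqp4 had 180 and 201 counts in PBS-treated wild type, 25 and 108 in HDM-treated wild type, 93 and 95 in PBS-treated labelled DDAH1-transgenic, and 110 and 183 in HDM-treated labelled DDAH1-transgenic libraries. Its CPM were 18.04 and 16.4, 2.24 and 10.9, 9.31 and 10.03, and 16.4 and 14.2. The direction with HDM was downward in wild type (log2 fold change -1.41, SE 0.59, adjusted p = 0.204) and upward in labelled DDAH1-transgenic mice (0.69, SE 0.47, adjusted p = 0.376), and the interaction was 2.07 (SE 0.80, unadjusted p = 0.0181, adjusted p = 0.224). The wild type value rests on the library with 25 counts, since without it the log2 fold change was -0.67 (adjusted p = 0.449) and without the other HDM library -2.96 (adjusted p = 0.000106). It also passed the threshold without the low-count filter (adjusted p = 0.0478). Aqp4 averaged 17.2, 6.55, 9.67 and 15.3 CPM in the same order of groups. The groups differed in skeletal muscle genes, as given above, and the part of muscle in Aqp4 was not tested.

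Aqp5 had 643 and 870, 607 and 494, 893 and 758, and 270 and 1026 counts in the same order of groups. Its log2 fold change with HDM was -0.39 in wild type (SE 0.21, adjusted p = 0.341) and -0.48 in labelled DDAH1-transgenic mice (SE 0.30, adjusted p = 0.347). The 2 HDM-treated labelled DDAH1-transgenic libraries lay at 40.3 and 79.5 CPM, a wider gap than in any other group, and without the higher of the 2 the log2 fold change was -1.05 (adjusted p = 0.0149).

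Atp12a had 0 counts in all 8 libraries. A count of 0 allows up to 3 counts, or between 0.233 and 0.447 CPM depending on the library, counting error only. Foxi1 and Ascl3, the regulator genes that define ionocytes, the rare airway cells rich in CFTR, also had 0 counts in all libraries, and neither was detected at this depth.

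Levels were set in order per kb of coding length. In PBS-treated wild type the order was Scnn1a (130.4 ± 4.89 CPM per kb), Aqp5 (85.2 ± 5.92), Scnn1g (75.5 ± 8.75), Scnn1b (35.1 ± 1.32), Slc12a2 (30.9 ± 0.849), Aqp4 (17.8 ± 1.18), Ano1 (14.7 ± 0.621), Cftr (3.05 ± 0.137) and Slc26a4 (2.73 ± 0.832), with Atp12a at 0. The libraries of the neighbours Aqp5 and Scnn1g overlapped, as did those of Cftr and Slc26a4, and the other neighbours did not overlap. Slc26a4 was the lowest of the 9 in both PBS groups, the second in HDM-treated wild type (81.1 ± 3.92) and the fifth in HDM-treated labelled DDAH1-transgenic libraries (22.3 ± 2.17). In the last group the first 4, Aqp5 (75.4 ± 34.9), Scnn1g (73.4 ± 19.5), Scnn1a (69.7 ± 19.6) and Slc12a2 (65.1 ± 36.5), did not differ beyond their spread. Per kb of the whole transcript, 34 of the 36 pairs of genes kept their order in PBS-treated wild type. Those that changed were Aqp5 with Scnn1g (37.7 and 49.6 CPM per kb of transcript) and Aqp4 with Ano1 (3.41 and 9.85). The order of Aqp4 and Ano1 thus depends on the length used.

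Among 56 other genes of ion and water transport, grouped by role, 54 had a count in some library. With HDM in wild type, 3 of 50 tested rose and 1 fell, and in labelled DDAH1-transgenic mice 4 of 49 rose and 4 fell. These calls were 8% and 16.3% of the genes tested, near the 6.74% and 13.8% of all genes. Between the labelled genotypes 1 of 48 was lower under PBS, and 1 of 52 was higher and 1 lower under HDM, which is 2.08% and 3.85% against 0.657% and 2.44% of all genes. The median log2 fold change of these genes was -0.05 and -0.09 for HDM in the 2 genotypes and -0.01 and 0.02 for genotype under PBS and HDM. Of the roles, the 5 other aquaporins, the 4 genes of luminal nucleotide signals and the 2 ionocyte regulators had no gene past the threshold in any pairwise comparison by edgeR. DESeq2 called Aqp9 with HDM in labelled DDAH1-transgenic mice and Aqp1 between genotypes under both treatments, and none of the nucleotide genes. At an unadjusted p under 0.05 there was 1 aquaporin in each pairwise comparison, and the nucleotide genes had 1, 1, 0 and 2 in the order wild type HDM, labelled DDAH1-transgenic HDM, genotype under PBS and genotype under HDM. In this order 19.9%, 27.7%, 9.98% and 16.2% of all genes had such a p.

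Among anion and bicarbonate genes, Clca1, a secreted goblet cell protein that acts on chloride currents and mucus, had the largest change. Its counts were 80 and 41 in PBS-treated wild type, 19764 and 17070 in HDM-treated wild type, 182 and 200 in PBS-treated labelled DDAH1-transgenic, and 3936 and 9160 in HDM-treated labelled DDAH1-transgenic libraries. It was 312-fold higher with HDM in wild type (log2 fold change 8.29, SE 0.27, adjusted p = 1.52e-10) and 33.5-fold higher in labelled DDAH1-transgenic mice (5.07, SE 0.22, adjusted p = 1.03e-07). Under HDM it was 2.61-fold lower in labelled DDAH1-transgenic libraries (log2 fold change -1.39, SE 0.16, adjusted p = 0.00144), as Slc26a4 was, and the call was lost without replicate 1 (adjusted p = 0.165) or replicate 2 (0.0788) of the HDM-treated wild type libraries. Under PBS Clca1 was higher in the labelled DDAH1-transgenic libraries, at 18.2 and 21.1 CPM against 8.02 and 3.35 in wild type, where Slc26a4 was lower. DESeq2 called this Clca1 difference under PBS and edgeR did not. The study listed this gene from the same libraries. Lrrc8a, a subunit of volume-regulated anion channels, fell by 0.98 on the log2 scale with HDM in labelled DDAH1-transgenic mice (SE 0.22, adjusted p = 0.0117), from 139 and 146 to 69.05 and 73.02 CPM. Car12, a membrane carbonic anhydrase, had 0 counts in both PBS-treated and 17 and 23 counts in both HDM-treated labelled DDAH1-transgenic libraries, and was at least 7.0-fold higher against a floor of 3 counts per library (adjusted p = 0.0407). It had 0 and 16 counts in PBS-treated and 7 and 0 in HDM-treated wild type libraries, and passed the threshold in 5 of 12 alternatives.

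Among genes that control ENaC, Bpifa1 (SPLUNC1), a secreted protein that binds the channel and reduces its surface number, moved most. It was at 144 and 143 CPM in PBS-treated wild type, 19.2 and 37.2 in HDM-treated wild type, 50.95 and 57.9 in PBS-treated labelled DDAH1-transgenic, and 61.7 and 59.9 in HDM-treated labelled DDAH1-transgenic libraries. It fell by 2.35 on the log2 scale with HDM in wild type (SE 0.26, adjusted p = 5.56e-05) and differed by 0.19 in labelled DDAH1-transgenic mice (SE 0.26, adjusted p = 0.706), and it was lower in labelled DDAH1-transgenic than in wild type libraries under PBS (-1.41, SE 0.18, adjusted p = 0.000242). Under HDM the difference ran the other way, at 1.15 (SE 0.34), with both labelled DDAH1-transgenic libraries above both wild type libraries, and did not pass the test (adjusted p = 0.113), though DESeq2 called it. The interaction was 2.51 (SE 0.38, adjusted p = 0.00118). The study listed this gene too. Tmprss4, a membrane serine protease that can cleave ENaC, rose in wild type from 3.71 and 3.19 to 10.8 and 20.8 CPM (log2 fold change 2.19, SE 0.53, adjusted p = 0.022). This call was lost without replicate 2 of the PBS-treated (adjusted p = 0.0943) or of the HDM-treated wild type libraries (0.122).

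Spint2, an inhibitor of such proteases, was at 128 and 113 CPM in the HDM-treated labelled DDAH1-transgenic libraries and between 58.7 and 65.8 CPM in the other 6. It rose by 0.99 on the log2 scale with HDM in labelled DDAH1-transgenic mice (adjusted p = 0.0162) and was 0.99 higher in them than in wild type under HDM (adjusted p = 0.0427). With a correction for transcript length these values were 0.53 (adjusted p = 0.187) and 0.66 (adjusted p = 0.218), and without replicate 1 or 2 of the HDM-treated wild type libraries the adjusted p of the second was 0.411 or 0.386. Nedd4l, a ubiquitin ligase that removes ENaC from the membrane, fell by 0.87 with HDM in labelled DDAH1-transgenic mice (adjusted p = 0.0363), and Wnk1, a kinase upstream of chloride cotransporters, fell by 0.64 (adjusted p = 0.0197). Corrected for length, Wnk1 differed by -0.14 (adjusted p = 0.638) and Nedd4l by -0.76 (adjusted p = 0.0789).

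Kcnn4, a calcium-activated potassium channel of epithelium and leukocytes, rose in both genotypes. Its counts were 15 and 45 in PBS-treated and 162 and 208 in HDM-treated wild type, and 8 and 17 in PBS-treated and 178 and 271 in HDM-treated labelled DDAH1-transgenic libraries. All HDM libraries lay above all PBS libraries, with log2 fold changes of 2.75 (SE 0.55, adjusted p = 0.00782) and 4.21 (SE 0.59, adjusted p = 0.000844), and both calls held in 12 of 12 alternatives. Mean levels of the leukocyte markers Ptprc, Itgam and Cd3e were also higher in HDM than in PBS libraries of both genotypes. Ptprc, the common leukocyte antigen gene, was at 229.8 and 326 CPM on average in PBS- and HDM-treated wild type (log2 fold change 0.50, adjusted p = 0.0463) and at 139 and 439.8 CPM in the labelled DDAH1-transgenic libraries (1.69, adjusted p = 0.000173). Itgam, a gene of myeloid cells, passed the test in labelled DDAH1-transgenic mice (1.33, adjusted p = 0.0113) and not in wild type (0.47, adjusted p = 0.221), and the T cell gene Cd3e passed it in neither (adjusted p = 0.0945 in wild type and 0.145). The part of leukocytes in the Kcnn4 values was not tested. The calls of Lrrc8a, Nedd4l, Wnk1, Spint2 and Car12 in labelled DDAH1-transgenic mice were each lost without either of their PBS-treated libraries (adjusted p between 0.124 and 0.358).

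**Figure D4:**
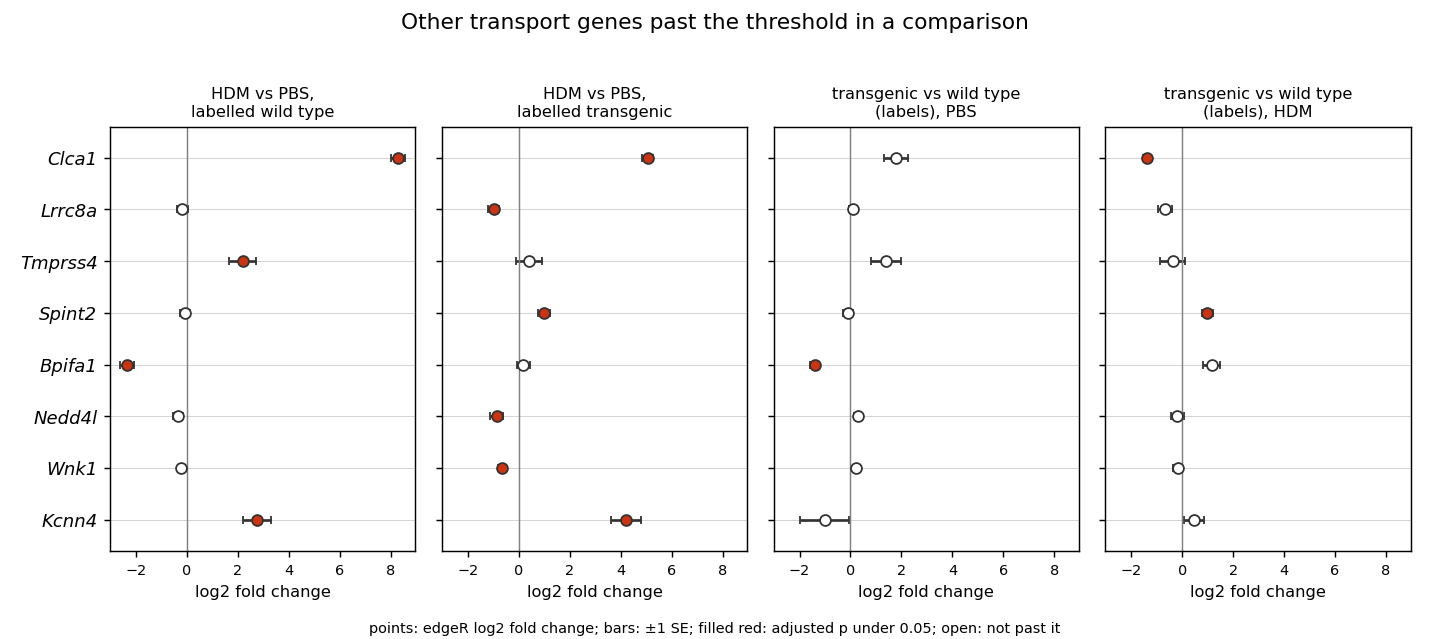
Log2 fold changes (horizontal axes, edgeR) with bars of 1 SE for 8 of the other transport genes past an adjusted p of 0.05 in at least 1 of the 4 pairwise comparisons, filled where past it. Car12, with 0 counts in a group, is left out. Clca1 lies at 8.29 and 5.07 with HDM and at -1.39 between genotypes under HDM, and Bpifa1 at -2.35 with HDM in wild type and 0.19 in the labelled DDAH1-transgenic libraries.

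The genes whose pattern was nearest to that of a member, by the root mean square distance of centred log2 CPM over all 8 libraries, were sought among 15683 genes. For Slc26a4 these were Fcgbp, a mucus protein (distance 0.314), and Arg1, the arginine-hydrolyzing enzyme arginase 1 (0.491). Fcgbp was at 3.09, 85.5, 1.99 and 27.6 CPM and Arg1 at 3.79, 93.3, 2.15 and 16.6 CPM on average in PBS-treated wild type, HDM-treated wild type, PBS-treated and HDM-treated labelled DDAH1-transgenic libraries. For Scnn1a they were Gpx3, a secreted glutathione peroxidase, and Cobl, an actin nucleator, both at 0.095. For Scnn1b they were Ndrg2 (0.14) and Drc7, a protein of motile cilia (0.194). A short distance is a description over 8 libraries from 4 pools.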

How the data were processed

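RNA of 4 mice per group was pooled and sequenced as 2 libraries per group (single reads, after amplification). Groups come from the sample titles. The counts the authors deposited are raw reads per coding region of 23469 genes, aligned to mm10 with TopHat (version not given in the sources used here). The members and gene lists were chosen with earlier results of these data known. Symbols of 23372 genes came from RefSeq (GRCm38.p6), lengths from GENCODE M21. CPM used TMM factors over all 8 libraries. Each comparison was tested on its own 4 libraries, the interaction on all 8, with edgeR 4.0.16 (R 4.3.3; quasi-likelihood test, filterByExpr with a count minimum of 10, Benjamini-Hochberg over all genes tested, threshold 0.05). A run on simulated counts came first, with a single dispersion for all genes, so that it does not cover the spread of these libraries. Named were the 10 members, other transport genes past the threshold, and the 2 genes nearest in pattern to each called member. No member shared a stretch of 50 transcript bases with another gene. Alternatives included DESeq2 1.42.0, RLE factors, no filter, a length offset, a replicate block and leaving out each library. The 2 libraries of every group differed by more than sampling noise. Of the named genes, 1 other transport gene past the threshold is not reported here, nor is 1 leukocyte marker.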

Additional observations from a re-analysis of the deposited data

Results flagged for a closer look

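Clca1 differed between the genotypes in its response: the genotype effect under HDM minus that under PBS was -3.23 on the log2 scale (SE 0.33, adjusted p = 1.32e-05, edgeR's quasi-likelihood test on all 8 libraries), past the threshold in 15 of 15 alternatives, which ranged from -3.97 to -2.71. Bpifa1 differed in the opposite direction, by 2.51 (SE 0.38, adjusted p = 0.00118), also in 15 of 15 alternatives, from 2.10 to 3.07. Both values hold a difference under PBS as well as that under HDM. In PBS-treated wild type and labelled DDAH1-transgenic libraries Clca1 averaged 5.68 and 19.7 CPM, and Bpifa1 143 and 54.4 CPM. Each group is 1 pool of mice, so that a difference between the labelled genotypes and one between pools cannot be told apart.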

How the results depend on the processing

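The replicate numbers did not pair the libraries, since the deviations of same-numbered libraries correlated between -0.022 and 0.034. With the replicate block, 4 of 9 members were called with HDM in labelled DDAH1-transgenic mice (2 without it; Scnn1b at adjusted p = 0.0498 and Slc12a2 at 0.0124 were added), 1 for the interaction (Scnn1a, 0.0338; none without it), and over all genes 45 against 98 for genotype under PBS and 625 against 370 under HDM. Members called with HDM in labelled DDAH1-transgenic mice were also 4 without the low-count filter and with all 8 libraries in the fit, and between 1 and 4 when 1 library was left out. For genotype under HDM, 1 member became 2 without the filter and with the length offset and block, and between 0 and 4 when 1 library was left out (4, namely Slc26a4, Scnn1a, Scnn1g and Slc12a2, without replicate 2 of the HDM-treated labelled DDAH1-transgenic libraries). For genotype under PBS, 0 became at most 1 without a library. For the interaction, 0 became 1 with DESeq2 and without the filter, and between 0 and 2 without a library. The 2 members called with HDM in wild type were 2 or 3 under the alternatives run.

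Calls over all genes moved by more than 1.5 times, or with the length offset their split by direction moved by over 10 percentage points, as follows, beside the values with the block given above. HDM in wild type had 1020 calls, 1588 without the filter, and 652 to 1661 without a library. HDM in labelled DDAH1-transgenic mice had 2079, 1360 with the length offset, and 277 to 2676 without a library. Genotype under PBS had 98, 223 with DESeq2, 306 without the filter, 177 with the length offset and block, and 75 to 432 without a library. Genotype under HDM had 370 (279 higher, 91 lower), 890 with DESeq2 (576 and 314), 1055 without the filter, 160 with the length offset (88 and 72), 375 with offset and block (210 and 165), 771 with all 8 libraries (440 and 331), and 6 to 1595 without a library. The interaction had 279 (167 higher, 112 lower), 680 with DESeq2, 675 without the filter, 199 with the length offset (97 and 102), 261 with offset and block (124 and 137), and 138 to 721 without a library.

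Small differences changed sign. Ano1 with HDM in labelled DDAH1-transgenic mice was 0.1152 and 0.1108 with the length offset, alone and with the block, and -0.2527 to 0.0245 without a library. Between genotypes under HDM, Ano1 was 0.0060 and 0.0173 with these offsets and -0.3185 to 0.1431 without a library, Aqp5 -0.0256 with offset and block and -0.3107 to 0.6334 without a library, and Cftr -0.5247 to 0.0172 without a library. Between genotypes under PBS, Scnn1b was -0.4474 to 0.2880 without a library. For the interaction, leaving out a library gave -0.6857 to 0.2946 for Aqp5, -0.1752 to 1.0361 for Slc12a2 and -0.3262 to 0.2229 for Scnn1g. The cause was not tested. Atp12a and the ionocyte genes had no count in any library.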
